A study of Mus musculus with 4 samples.

Results

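Cardiac expression of 10 genes of triglyceride storage was examined in mice that lack PIMT in cardiomyocytes. The set held 4 perilipins (*Plin2*, *Plin3*, *Plin4* and *Plin5*), 3 lipases (*Pnpla2*, *Lipe* and *Mgll*), the lipase coactivator *Abhd5* and 2 acyltransferases (*Dgat1* and *Dgat2*). The genes were taken by symbol, from a list of names and with no threshold on their values, from the 23337 genes listed in each library, and all 10 were found. RNA-seq had been carried out on 4 libraries of heart RNA from C57BL6/J mice, each made from the RNA of 5 hearts of male and female mice pooled. The groups were PIMT fl/fl mice at 2 months, PIMT fl/fl mice at 6 months, csPIMT-/- mice at 2 months and csPIMT-/- mice at 6 months, with 1 library per group. All mice carried floxed alleles of PIMT (gene symbol *Tgs1*), a protein that binds nuclear receptor coactivators and methylates the caps of small RNAs. In csPIMT-/- mice Cre recombinase driven by the α-MyHC promoter, which is active in cardiomyocytes, deleted the floxed exons. The other cells of the heart keep the gene. The controls carried no Cre, so that the effect of the deletion and of the Cre transgene cannot be told apart. There were no replicate libraries, hence no p-value is given for a difference at 1 age.

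The heart burns mainly fatty acids, and keeps those it does not use at once as triglyceride in small lipid droplets beside the mitochondria. Diacylglycerol acyltransferases add the last fatty acid to make triglyceride. Perilipins coat the droplet and control the access of lipases to it. The lipases then act in turn: adipose triglyceride lipase (*Pnpla2*) releases the first fatty acid, hormone-sensitive lipase (*Lipe*) acts on the diacylglycerol that remains, and monoacylglycerol lipase (*Mgll*) completes the breakdown. ABHD5, also known as CGI-58, activates the triglyceride lipase. Several of these genes are known targets of PPARs, nuclear receptors that bind DNA with RXR at pairs of the half-site AGGTCA.

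Promoters were read from a table of RefSeq sequences (GRCm38.p6), in which 8 of the 10 genes were matched, with 11 start sites. Of these, 3 are shown here, over the 250 bases before the start: *Plin2* and *Pnpla2*, the closest pair of genes by expression pattern and both higher in csPIMT-/- hearts, and *Abhd5*, which was lower there. Capitals mark AGGTCA on either strand (TGACCT where it is on the other strand). The *Plin2* promoter lies at chr4:86670060-86670309 on the minus strand, that of *Pnpla2* at chr7:141454938-141455187 on the plus strand, and that of *Abhd5* at chr9:122351366-122351615 on the plus strand.
Plin2: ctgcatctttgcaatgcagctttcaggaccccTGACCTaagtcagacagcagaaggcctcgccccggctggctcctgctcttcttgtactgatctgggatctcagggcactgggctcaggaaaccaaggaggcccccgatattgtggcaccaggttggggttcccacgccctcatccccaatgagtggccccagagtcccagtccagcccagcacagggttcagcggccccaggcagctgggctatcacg
Pnpla2: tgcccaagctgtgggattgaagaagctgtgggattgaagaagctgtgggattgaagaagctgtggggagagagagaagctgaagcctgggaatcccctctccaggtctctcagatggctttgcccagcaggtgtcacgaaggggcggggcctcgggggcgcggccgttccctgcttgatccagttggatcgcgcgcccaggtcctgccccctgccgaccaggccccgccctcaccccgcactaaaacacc
Abhd5: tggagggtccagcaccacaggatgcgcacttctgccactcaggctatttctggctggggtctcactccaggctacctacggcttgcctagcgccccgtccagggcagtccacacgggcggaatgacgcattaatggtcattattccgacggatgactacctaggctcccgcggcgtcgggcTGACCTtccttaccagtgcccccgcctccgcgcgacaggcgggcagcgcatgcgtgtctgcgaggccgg
The hexamer began at -218 in *Plin2* and at -69 in *Abhd5*, and these letters were not found in the 250 bases of *Pnpla2*. Over both strands it was present in 3 of the 11 promoters of the set (27.3%), the third being 1 of the 2 starts of *Plin5* at -170. Of all 32851 promoters of the same length, 14.0% held it. The matches thus lay in a gene with higher, a gene with nearly level and a gene with lower expression in csPIMT-/- hearts. No promoter entry was used for *Dgat1* and *Dgat2*.

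Reads on genes numbered 39854713 in the 2-month control and 40705783 in the 6-month control, and the csPIMT-/- libraries held 29823073 at the younger and 36172093 at the older age. Values are normalized counts as deposited, in which 1 read is worth 0.865 to 1.233. *Tgs1* was read at 580 and 816 normalized counts in the controls and at 160 and 162 in the csPIMT-/- hearts, lower in the hearts labelled as deleted. Its transcript has a GC content of 41.9%, and ratios moved with GC content across all genes, as given below. With that trend subtracted its ratios were 0.599 and 0.493, in place of 0.276 at 2 months and 0.199 at 6 months. It was then not called over both ages (limma adjusted p = 0.167). Defining markers of cardiomyocytes were present throughout, with a summed level of 1890847 to 2090015 for 12 genes. This sum covers differences in both directions, with 6 of the 12 above a ratio of 1 at 6 months. At that age *Myh7* was at 6589 in the control and 310924 in the csPIMT-/- heart, and *Myh6* at 587914 and 452317. The csPIMT-/- library of 2 months had the highest sums of lung and adipocyte markers. Its 6 lung markers summed to 1169 normalized counts against 2 to 19 elsewhere. Most of that sum was 1 gene, *Bpifa1* at 979, followed by *Scgb1a1* at 139, and the others were at 25.9 or less. Adipocyte and atrial markers, which also differed between the controls, are given with the results below. All 10 genes had at least 1552 reads in every library, so that none depended on a filter for low counts. In bulk RNA fewer cells of a type and less RNA per cell cannot be told apart.

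Among the perilipins, *Plin2* and *Plin3* were higher in both csPIMT-/- hearts than in both controls, *Plin4* showed its main difference at 6 months and *Plin5* differed little. *Plin2* (chr4:86648386-86670060, minus strand), the ubiquitous droplet coat protein, was at 4586 normalized counts in the 2-month control, 4163 in the 6-month control, 8650 in the 2-month csPIMT-/- heart and 7055 in the 6-month csPIMT-/- heart. The genotypes did not overlap, and the ratio of csPIMT-/- over control was 1.89 at 2 months (95% counting interval 1.82 to 1.96) and 1.69 at 6 months (1.63 to 1.76). These intervals, here and below, cover the error of counting reads only and not the spread between animals.

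*Plin3* (chr17:56277476-56292873, minus strand), which is cytosolic until it coats nascent droplets, gave the largest ratio of the set. Its normalized counts were 6584 and 8424 in the controls of 2 and 6 months, against 15437 and 14649 in csPIMT-/- hearts. Both csPIMT-/- libraries lay well above the higher control. The ratio was 2.34 at 2 months (2.28 to 2.41) and 1.74 at 6 months (1.69 to 1.78). Between 2 and 6 months the controls differed by a factor of 1.28 and the csPIMT-/- hearts by 0.949.

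*Plin4* (chr17:56100591-56109803, minus strand), a perilipin of fat, heart and skeletal muscle, was at 16000 and 12952 normalized counts in the controls of 2 and 6 months. In the csPIMT-/- hearts it was at 17316 and 26274. Only the 6-month csPIMT-/- heart stood far above the rest, with a ratio of 1.08 at 2 months (1.06 to 1.11) and 2.03 at 6 months (1.99 to 2.07). *Plin4* thus went from the smallest to the largest ratio of the 10 genes above 1. *Plin5* (chr17:56111601-56117596, minus strand), the perilipin of oxidative tissue that tethers droplets to mitochondria, lies only 1797 bases from *Plin4* on the same strand. Its normalized counts were 7875, 6483, 8839 and 7142 in the same order of libraries. The genotypes overlapped, since the 6-month csPIMT-/- heart was below the 2-month control. The ratios of *Plin5* were 1.12 (1.09 to 1.16) and 1.10 (1.07 to 1.14), and the neighbouring genes therefore differed in pattern at 6 months.

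**Figure D1:**
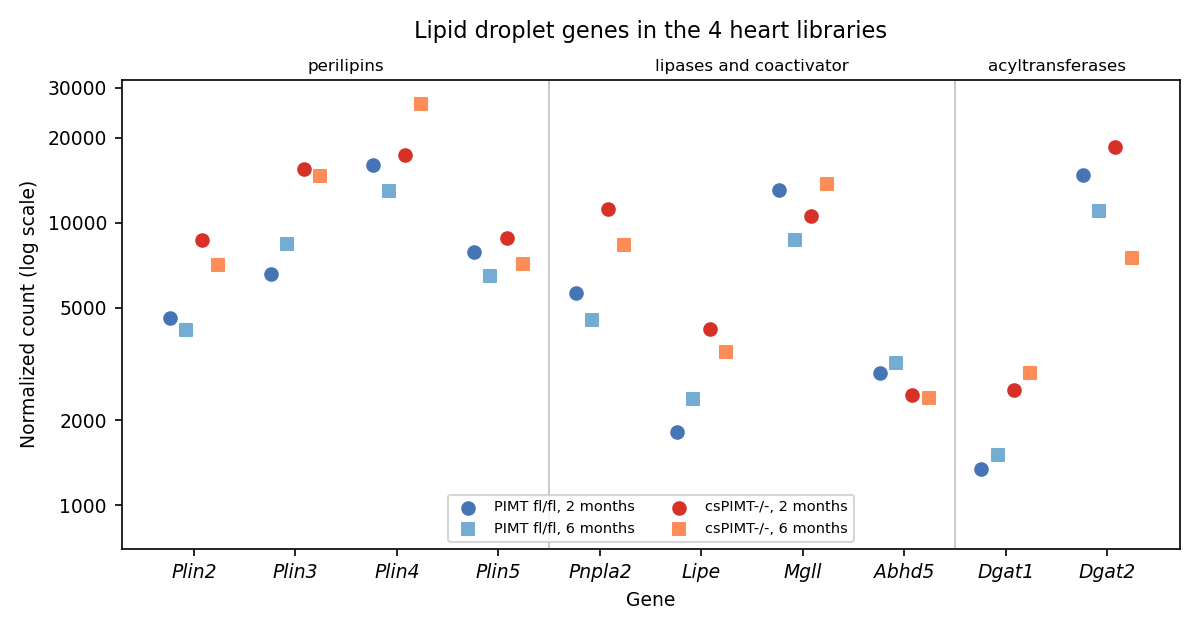
Normalized counts (vertical axis, log scale) of the 10 genes (horizontal axis) in the 4 libraries, 1 point per library. Blue points are PIMT fl/fl and red or orange points csPIMT-/- hearts, circles are 2 months and squares 6 months. For *Plin2*, *Plin3*, *Plin4*, *Pnpla2*, *Lipe* and *Dgat1* both csPIMT-/- points lie above both control points, and for *Abhd5* both lie below.

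Of the lipolytic genes, the first lipase was higher and its coactivator lower in the csPIMT-/- hearts. *Pnpla2* (chr7:141455198-141460743, plus strand), which encodes the rate-limiting triglyceride lipase, was at 5622 and 4533 normalized counts in the controls of 2 and 6 months and at 11153 and 8312 in the csPIMT-/- hearts. Its ratio was 1.98 at 2 months (1.92 to 2.05) and 1.83 at 6 months (1.77 to 1.90). Within each genotype the later age was lower by nearly the same factor, 0.806 in the controls and 0.745 in the csPIMT-/- hearts. *Abhd5* (chr9:122351608-122381524, plus strand), the coactivator of that lipase, was at 2928, 3173, 2458 and 2403 normalized counts. It was the sole gene of the set below both controls in both csPIMT-/- libraries, with ratios of 0.840 (0.794 to 0.888) and 0.757 (0.719 to 0.798).

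*Lipe* (chr7:25379527-25398710, minus strand), the diacylglycerol lipase that responds to protein kinase A, was at 1820 and 2375 normalized counts in the controls and at 4209 and 3473 in the csPIMT-/- hearts. The genotypes did not overlap. Its ratio was 2.31 at 2 months (2.19 to 2.44) and 1.46 at 6 months (1.39 to 1.54). An antisense gene, *4732471J01Rik*, is annotated across the whole of *Lipe*. It was at 16.4 to 46.6 normalized counts, far below *Lipe* in every library. *Mgll* (chr6:88724412-88828360, plus strand), which also degrades the endocannabinoid 2-arachidonoylglycerol, was at 13043, 8693, 10525 and 13745 normalized counts. Its genotypes overlapped and its direction differed between the ages, at 0.807 (0.786 to 0.829) and 1.58 (1.54 to 1.62). The control of 6 months was the lowest library and the csPIMT-/- heart of 6 months the highest.

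The acyltransferases, which share an activity but not an ancestral sequence, behaved differently. *Dgat1* (chr15:76502015-76511953, minus strand), which re-esterifies fatty acids that enter the cell, was at 1343 and 1503 normalized counts in the controls of 2 and 6 months. It was at 2556 and 2940 in the csPIMT-/- hearts. Its ratio was nearly the same at both ages, 1.90 (1.78 to 2.03) and 1.96 (1.84 to 2.08). *Dgat2* (chr7:99153658-99182719, minus strand), which works with newly made fatty acids, was at 14710, 10970, 18533 and 7507 normalized counts. The csPIMT-/- hearts held both the highest and the lowest value. The ratio was 1.26 at 2 months (1.23 to 1.29) and 0.684 at 6 months (0.665 to 0.705). Between 2 and 6 months *Dgat2* differed by a factor of 0.405 in csPIMT-/- hearts and 0.746 in the controls.

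At each age 8 of the 10 genes were above 1, against 49.9% of 15152 genes at 2 months and 50.1% of 15218 at 6 months. With the trend with GC content subtracted, as given below, 6 of the 10 were above 1 at 2 months and 7 at 6 months. Of all genes with a GC value 51.0% and 50.7% then were. The median ratio of the set was 1.54 at 2 months and 1.64 at 6 months, while that of all genes was 0.999 at 2 months. Past 2-fold higher were 2 of 10 genes at 2 months (*Plin3* and *Lipe*), where 17.3% of all genes were, and 1 of 10 at 6 months (*Plin4*), where 16.9% were. These shares are near those of all genes. None of the 10 was below a ratio of 0.5, against 22.5% of all genes at 2 months and 24.9% at 6 months. Both csPIMT-/- libraries were above both controls for 6 genes (*Plin2*, *Plin3*, *Plin4*, *Pnpla2*, *Lipe* and *Dgat1*), against 35.2% of 14847 genes, and below both for 1 (*Abhd5*), against 35.9%. With the csPIMT-/- library of 2 months left out, 7 genes were above both controls and 2 below, where 43.8% of all genes were above and 43.8% below. The differences between the controls of 2 and 6 months, which no deletion enters, ran from 0.666 for *Mgll* to 1.31 for *Lipe*. The ratios of *Plin5*, *Abhd5* and *Dgat2* between genotypes did not go beyond that range, nor did the ratio of *Plin4* or *Mgll* at 2 months.

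**Figure D2:**
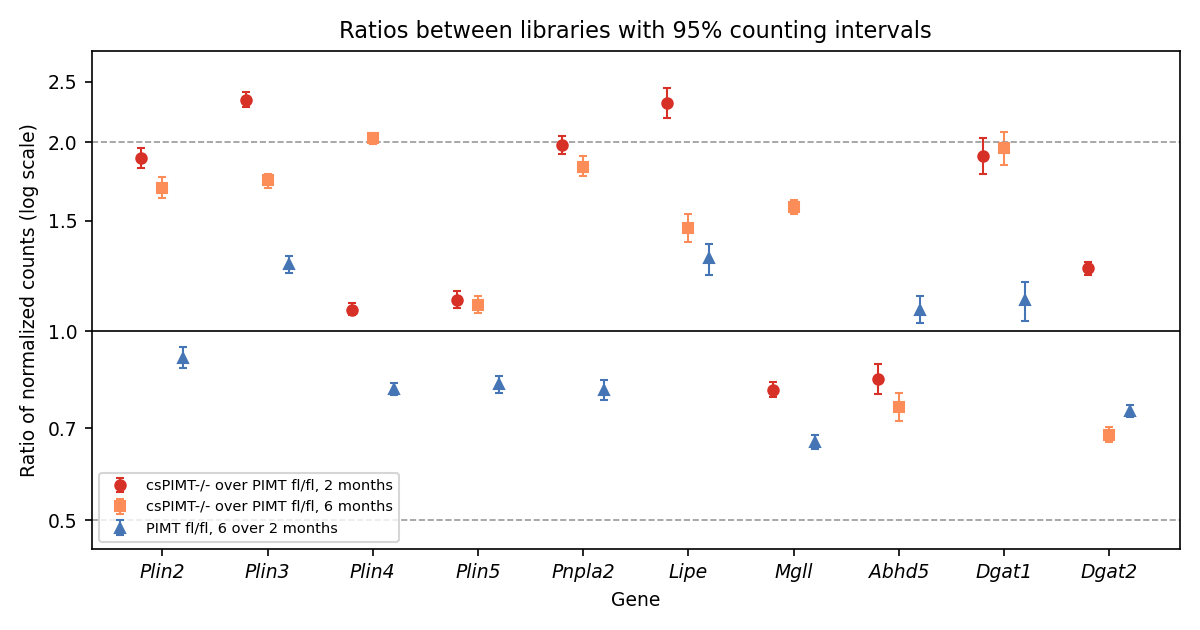
Ratios of normalized counts (vertical axis, log scale) for the 10 genes (horizontal axis). Red circles are csPIMT-/- over PIMT fl/fl at 2 months, orange squares the same at 6 months, and blue triangles PIMT fl/fl at 6 over 2 months. Bars are 95% counting intervals, the solid line is 1 and dashed lines are 2 and 0.5. *Dgat1* has nearly the same genotype ratio at both ages, 1.90 and 1.96, and those of *Mgll* and *Dgat2* lie on opposite sides of 1.

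The genotypes were compared over both ages with limma, fitting genotype and age to log2 normalized counts of the 4 libraries. This fit has 1 residual degree of freedom, so its p-values rest on a variance borrowed across genes, and the departure from additive effects stands in for the spread between replicates. By limma with Benjamini-Hochberg adjustment over 14847 genes, 4 of the 10 rose and the other 6 did not pass, against 11.0% of all genes called higher and 17.5% called lower. By edgeR 4 and by DESeq2 5 of the 10 were called. All 4 calls were lost when limma was run without a mean trend of the variance, with adjusted p of 0.0919 to 0.108. *Pnpla2* rose by 0.93 on the log2 scale (SE 0.198, limma adjusted p = 0.0304). *Plin3* rose by 1.01 (SE 0.222, limma adjusted p = 0.0321), *Dgat1* by 0.95 (SE 0.207, limma adjusted p = 0.0321) and *Plin2* by 0.84 (SE 0.199, limma adjusted p = 0.0372). *Lipe* missed the threshold, with a log2 difference of 0.88 (SE 0.249, limma adjusted p = 0.0549). The other 5 genes had adjusted p of 0.191 (*Plin4*), 0.266 (*Abhd5*), 0.576 (*Plin5*), 0.671 (*Mgll*) and 0.791 (*Dgat2*) in the same limma fit. With the csPIMT-/- library of 2 months left out and genotype alone in the model, 1 of the 4 calls was kept (*Dgat1*, limma adjusted p = 0.0451). The adjusted p was then 0.0552 for *Plin3*, 0.0751 for *Plin2* and 0.0887 for *Pnpla2* (limma), with log2 differences of 0.98, 0.69 and 0.72. In that fit the difference between the control ages supplied the spread. Over all alternatives, run with limma, edgeR or DESeq2, the adjusted p ran from 0.00955 to 0.388 for *Dgat1*, from 0.00374 to 0.132 for *Plin3*, from 0.0164 to 0.184 for *Plin2* and from 0.00671 to 0.426 for *Pnpla2*, the highest of each being that with the GC trend subtracted.

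Genotype ratios moved with the GC content of the transcript across all genes. Spearman's rho between the log2 ratio and GC content was 0.581 at 2 months and 0.607 at 6 months across genes, which are not independent replicates, and -0.261 between the control ages. The transcripts of 9 of the 10 genes were above the median GC content of 49.9%, up to 58.9% for *Plin5*, and the exception was *Abhd5* at 45.7%. The direction of *Abhd5*, the lower one in csPIMT-/- hearts, is therefore also that of genes with its GC content. With the GC trend of all genes subtracted, the median ratio of the set was 1.23 at 2 months and 1.17 at 6 months. *Plin3* and *Plin2* kept the most, at 2.11 and 1.56 at 2 months and at 1.48 and 1.32 at 6 months. *Dgat1* was then at 1.21 and 1.23 and *Pnpla2* at 1.25 (2 months) and 1.14 (6 months), so that most of their distance from 1 was shared with other genes of like GC content. *Abhd5* turned to 1.26 and 1.21, and *Plin5* to 0.682 and 0.655. *Dgat2* was then below 1 at both ages, at 0.806 and 0.433. *Lipe* kept 1.51 at 2 months and was at 0.947 at 6 months. *Mgll* was at 0.536 and 1.04, and *Plin4* at 0.703 and 1.31. In limma fits with the GC trend subtracted none of the 10 genes was called, and 3 (*Plin2*, *Plin3* and *Plin5*) had an unadjusted p under 0.05. Over all genes limma then called 0 genes, with 3490 at an unadjusted p under 0.05, while without that adjustment edgeR called 4127 and DESeq2 5200. Whether GC content had a part in the differences was not tested.

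**Figure D3:**
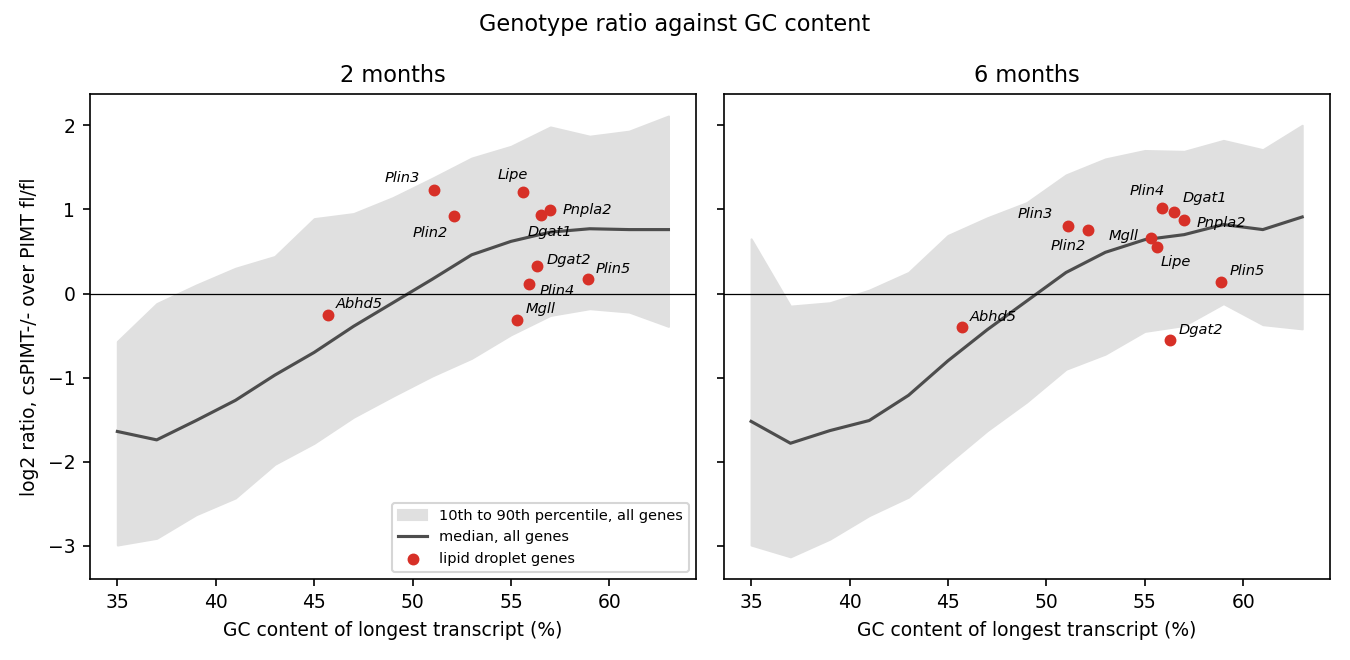
log2 ratio of csPIMT-/- over PIMT fl/fl (vertical axis) against the GC content of the longest transcript in percent (horizontal axis), at 2 months (left) and 6 months (right). The dark line is the median of all genes in bins of GC content, grey is their 10th to 90th percentile, and red points are the 10 genes. *Plin2* and *Plin3* lie above the median of genes with like GC content at both ages, *Plin5* and *Dgat2* below it.

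The genotype ratio changed most between the ages for *Mgll*, *Plin4* and *Dgat2*. The ratio at 6 months over that at 2 months was 1.96 for *Mgll* (95% counting interval 1.89 to 2.03), 1.87 for *Plin4* (1.82 to 1.93) and 0.543 for *Dgat2* (0.524 to 0.563). *Lipe* followed with 0.632 (0.587 to 0.681) and *Plin3* with 0.742 (0.714 to 0.771). Changes as large as that of *Mgll* were not rare, since 23.0% of 14847 genes exceeded it. *Plin5* and *Dgat1* changed least, with 0.982 (0.938 to 1.03) and 1.03 (0.940 to 1.12). For *Plin5* 96.5% of genes changed more.

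Levels of different genes were compared as normalized counts per kilobase of the longest transcript. By this measure *Dgat2* was the most abundant of the set in both controls (6503 and 4850 at 2 and 6 months) and in the 2-month csPIMT-/- heart (8193). *Plin5* came next in both controls (3965 and 3264), and *Abhd5*, *Dgat1* and *Lipe* were the lowest there. In the 6-month control *Plin3*, *Plin4*, *Plin2* and *Mgll* lay close together, between 2311 and 2178. In the 6-month csPIMT-/- heart *Plin4* was highest at 4565, and *Dgat2* was in place 6 at 3319. *Abhd5* was last in both csPIMT-/- hearts, at 779 and 761.

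Summed per kilobase, the 4 perilipins were at 10980 and 10030 in the controls of 2 and 6 months and at 16276 and 15916 in the csPIMT-/- hearts. No GC trend was subtracted from these sums. With it subtracted the genotype ratios at 2 months were 1.56 for *Plin2* and 2.11 for *Plin3*, but 0.703 for *Plin4* and 0.682 for *Plin5*. At 6 months they were 1.32, 1.48, 1.31 and 0.655 in the same order. *Plin5* made up 36.1% and 32.5% of this sum in the controls and 27.3% and 22.6% in the csPIMT-/- hearts. The share of *Plin3* was 16.5% and 23.0% in the controls against 26.0% and 25.3%. *Plin4* had 25.3% and 22.4% in the controls and then 18.5% at 2 months and 28.7% at 6 months in csPIMT-/- hearts. The mixture of perilipin transcripts thus held less *Plin5* and more *Plin3* in both csPIMT-/- hearts than in either control.

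Ratios of 2 genes within a library do not depend on the scaling of libraries, but can move with the GC content of the genes. *Pnpla2* over its coactivator *Abhd5* was 2.31 and 1.72 in the controls of 2 and 6 months, per kilobase, against 5.46 and 4.16 in csPIMT-/- hearts. These genes differ in GC content, at 57.0% and 45.7%. With the GC trend subtracted the genotype ratios of *Pnpla2* and *Abhd5* were alike, 1.25 and 1.26 at 2 months and 1.14 and 1.21 at 6 months, and the difference of the pair between genotypes was then lost. Over *G0s2*, the inhibitor of the same lipase, *Pnpla2* was 0.748 and 0.580 in the controls and 1.16 and 2.13 in the csPIMT-/- hearts. Neither pair of genotypes overlapped. *G0s2* itself was at 2494, 2592, 3187 and 1297 normalized counts, so the later csPIMT-/- heart was the lowest. *Dgat2* over *Dgat1* was 9.14, 6.09, 6.05 and 2.13, with the 6-month control and the 2-month csPIMT-/- heart inside each other's counting intervals (5.79 to 6.41 and 5.78 to 6.34). *Plin5* over *Plin2* was 1.63 and 1.48 in the controls and 0.971 and 0.962 in the csPIMT-/- hearts. *Plin4* over *Plin5* was 0.701, 0.689 and 0.676 in the first 3 libraries and 1.27 in the 6-month csPIMT-/- heart.

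**Figure D4:**
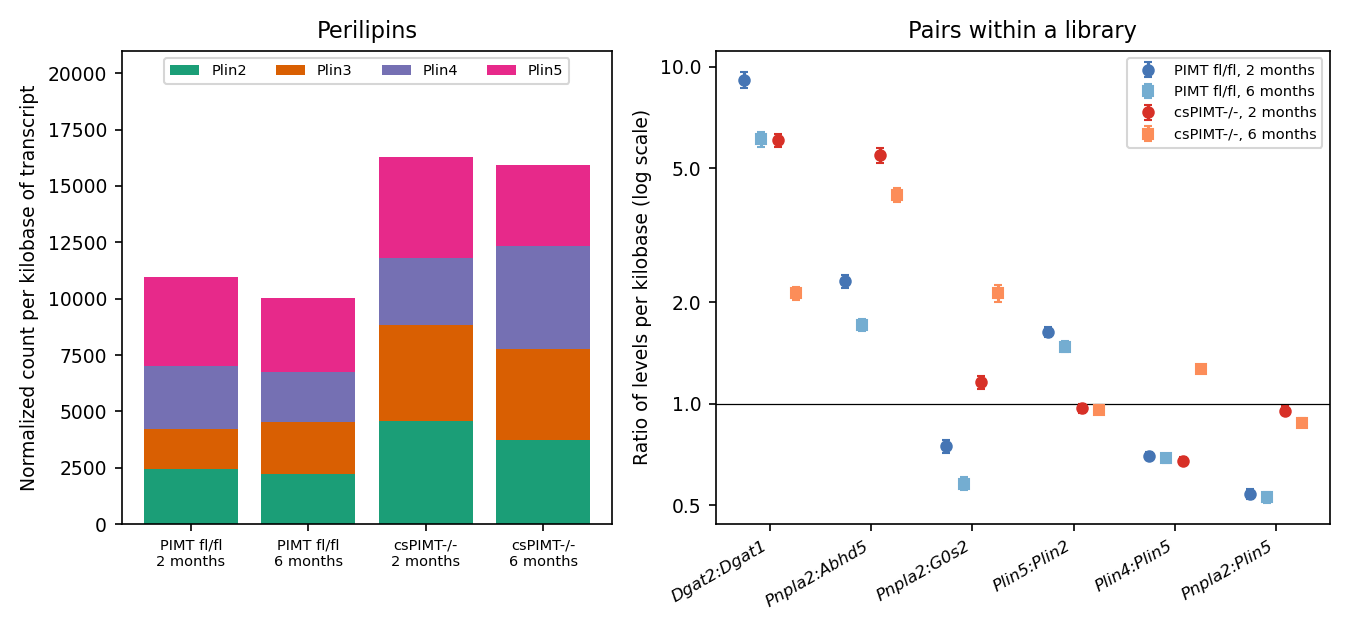
Left, normalized counts per kilobase of transcript (vertical axis) of the 4 perilipins stacked in each of the 4 libraries (horizontal axis). Right, ratio of the levels per kilobase of 2 genes within a library (vertical axis, log scale) for 6 pairs of genes, with 95% counting intervals. Bars reach 10980 and 10030 in the controls and 16276 and 15916 in csPIMT-/- hearts, and *Pnpla2* over *Abhd5* is highest in the csPIMT-/- hearts. No GC trend is subtracted in the plot, and with it subtracted the genotype ratios of *Pnpla2* and *Abhd5* are 1.25 and 1.26 at 2 months and 1.14 and 1.21 at 6 months.

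The likeness of patterns was measured as the mean absolute difference of log2 values over the 4 libraries, with each gene centred on its mean. Of 45 pairs the closest were *Plin2* with *Pnpla2* and *Plin3* with *Lipe*, both at 0.08, followed by *Plin3* with *Dgat1* at 0.12. *Plin4* was closest to *Dgat1* or *Mgll* (0.22 and 0.20). *Plin3* and *Abhd5* were the farthest apart at 0.67, then *Plin4* and *Dgat2* at 0.64. These values describe 4 libraries of which the controls and the csPIMT-/- hearts are shared by all pairs.

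Adipocytes express most of the 10 genes, and markers of white and brown adipocytes differed strongly between the libraries. At 2 months 12 of 17 markers were more than 2-fold higher in the csPIMT-/- heart, against 17.3% of all genes. At 6 months 1 of 16 was more than 2-fold higher and 6 were below a ratio of 0.5, against 16.9% and 24.9% of all genes. *Adipoq*, the adipocyte hormone adiponectin, was at 5.19 and 453 normalized counts in the controls of 2 and 6 months and at 1830 and 298 in the csPIMT-/- hearts. *Plin1*, the perilipin of fat cells, was at 3.46, 341, 1586 and 136, and *Cidec*, which fuses their droplets, at 2.60, 464, 2079 and 315. *Ucp1*, which marks brown fat, was at 8.65, 93.2, 1766 and 12.5. The control of 2 months was almost free of these genes, and the csPIMT-/- heart of the same age held the most. *Cidea* behaved otherwise, at 1889, 1015, 2561 and 2600. The sum of the 17 markers was 23957, 29636, 50567 and 25454 normalized counts. *Fabp4*, *Cox8b* and *Cidea* were then left out after their values were seen, because the 2-month control held over 1000 counts of each. The sum of the remaining 14 markers was 1333, 8119, 26460 and 5134. *Fabp4* was lower in the csPIMT-/- heart at both ages, at 10296, 9937, 3225 and 3308. Its ratios were 0.313 and 0.333, or 0.630 and 0.769 after subtraction of the GC trend. *Dio2* had ratios of 0.564 at 2 months and 1.65 at 6 months. *Lep* and *Retn* were at 0 in the 2-month control and *Elovl3* in the 6-month control.

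At 6 months the sum of 14 adipocyte markers was lower in the csPIMT-/- heart than in the control, and *Plin2*, *Plin3*, *Pnpla2* and *Dgat1* were higher there by 1.69 to 1.96 times. At 2 months that sum and those genes were both higher in the csPIMT-/- heart. Among the 10 genes the genotype ratio was higher at 2 than at 6 months for *Plin2*, *Plin3*, *Plin5*, *Pnpla2*, *Lipe*, *Abhd5* and *Dgat2*. It was lower at 2 months for *Plin4*, *Mgll* and *Dgat1*. For *Plin5* and *Dgat1* this change was within the counting interval. The ratios of *G0s2* were 1.28 at 2 months and 0.501 at 6 months. The part of adipocyte RNA in these ratios was not tested. Macrophages also carry *Plin2*. Of their 8 markers 6 were more than 2-fold higher at 2 months and 3 at 6 months, against 17.3% and 16.9% of all genes. Their sums were 14774, 32400, 40075 and 55433, and none was at 0. Their part in the ratios of *Plin2* was not tested. Of 6 atrial markers all were more than 2-fold higher in the csPIMT-/- heart at 2 months (median ratio 45.3), whereas at 6 months 4 were below a ratio of 0.5 and 1, *Nppa*, was more than 2-fold higher (median ratio 0.483). Their sum was 41731, 126707, 339946 and 352147 normalized counts, and none was at 0. The controls differed too, with a median ratio of 6 over 2 months of 16.6 for the atrial markers and 13.3 for 16 adipocyte markers. *Nppa*, a natriuretic peptide that failing ventricles also make, carried most of the sum in the csPIMT-/- hearts, at 201180 and 320296. The part of atrial RNA was not tested.

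**Figure D5:**
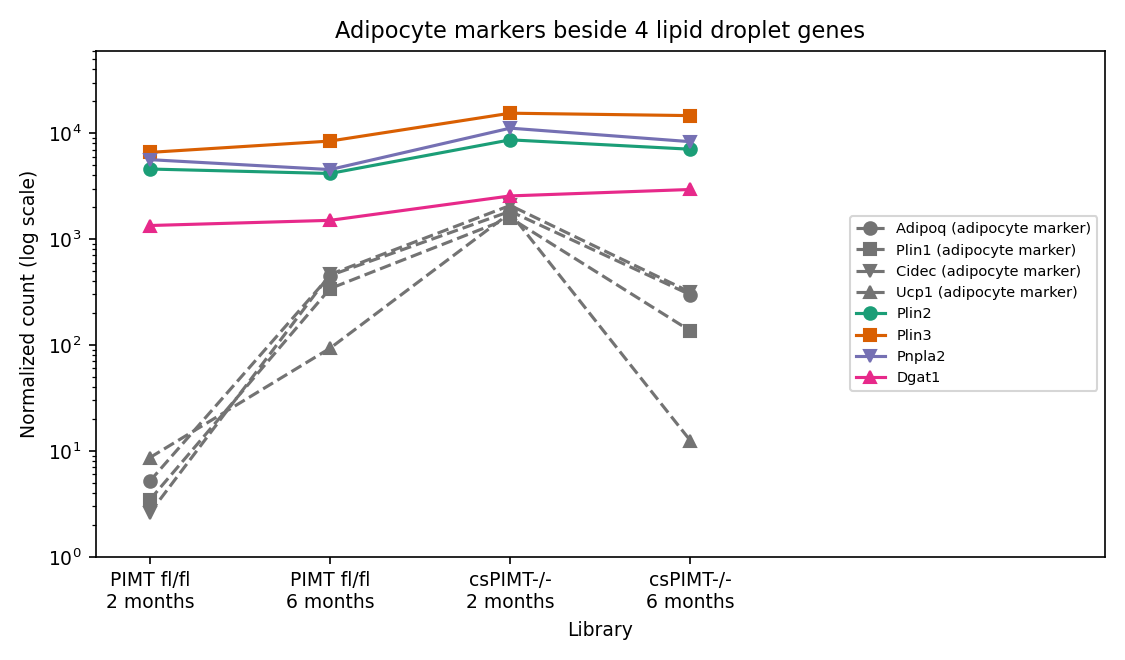
Normalized counts (vertical axis, log scale) in the 4 libraries (horizontal axis) of 4 adipocyte markers (grey, dashed) and of the 4 genes of the set that passed the limma test (coloured). Lines join the values of 1 gene and carry no order in time. The markers lie between 2.60 and 8.65 in the 2-month control and between 1586 and 2079 in the 2-month csPIMT-/- heart. In the 6-month csPIMT-/- heart these drawn markers are lower than in the control of that age, and the 4 genes are higher. Of 16 adipocyte markers compared at 6 months, 4 had a ratio above 1, none of them drawn.

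The genes around this pathway were followed as lists. None of their calls was kept in the limma fit with the GC trend subtracted, which called 0 of all 13469 genes fitted. The called genes *Ppap2c*, *Gyk* and *Agpat9* did not enter that fit for want of a GC value. Of 22 other proteins of the lipid droplet, 4 rose and 2 fell over both ages by limma with Benjamini-Hochberg adjustment, against 11.0% and 17.5% of all genes. Their median ratio at 6 months was 0.988, and 16 of the 22 were above 1 at 2 months against 11 at 6 months, beside medians near 1 for all genes. *Plin1*, *Cidea* and *Cidec* of this list are also among the adipocyte markers. *Cideb*, which promotes droplet fusion and lipoprotein loading, rose from 76.1 and 81.8 normalized counts in the controls to 281 and 186 (ratios 3.69 and 2.28, or 2.81 and 1.65 after subtraction of the GC trend, limma adjusted p = 0.0491). *Rab18*, a GTPase that links droplets to the endoplasmic reticulum, fell from 2055 and 2448 to 522 and 753 (ratios 0.254 and 0.308, limma adjusted p = 0.0163). *Cav1*, the caveolar protein that is also found on droplets and is abundant in endothelium, fell from 18010 and 16978 to 5358 and 3521 (limma adjusted p = 0.0163). After subtraction of the GC trend *Rab18* had ratios of 0.667 and 0.890 and *Cav1* of 0.603 and 0.482.

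The steps before the acyltransferases, from glycerol phosphate and fatty acyl-CoA to diacylglycerol, went in both directions. Of 23 genes fitted, 4 rose and 5 fell by limma with Benjamini-Hochberg adjustment, near the 11.0% and 17.5% of all genes, and the median ratio was 1.05 at 2 months and 1.19 at 6 months. *Gpd1*, which makes glycerol phosphate from a glycolytic intermediate, rose from 3642 and 3597 normalized counts to 7606 and 8279 (limma adjusted p = 0.0222). *Ppap2c*, a lipid phosphatase, rose from 125 and 183 to 488 and 721 (limma adjusted p = 0.0189). *Acsl3*, an acyl-CoA synthetase of nascent droplets, fell from 639 and 566 to 138 and 114 (limma adjusted p = 0.0170). *Agpat5*, an acyltransferase of mitochondria and endoplasmic reticulum, fell from 1433 and 1377 to 540 and 479 (ratios 0.377 and 0.347, limma adjusted p = 0.0199). After subtraction of the GC trend *Agpat5* had ratios of 0.740 and 0.782, *Acsl3* of 0.413 and 0.443, and *Gpd1* of 1.32 and 1.43 in place of 2.09 and 2.30.

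Among 17 other lipases and partners 1 rose and 1 fell by limma, beside 11.0% and 17.5% of all genes. *Abhd12*, a serine hydrolase related to *Abhd5*, rose from 1983 and 2381 normalized counts to 5200 and 5008 (limma adjusted p = 0.0216). *Pnpla8*, a phospholipase related to *Pnpla2*, fell from 3381 and 7004 to 812 and 1285 (ratios 0.240 and 0.183, limma adjusted p = 0.0163). After subtraction of the GC trend the ratios were 0.667 and 0.552 for *Pnpla8* and 1.77 and 1.39 for *Abhd12*. Of 17 genes of the hormonal control of lipolysis, which hold the β-adrenergic receptors, protein kinase A subunits and phosphodiesterases, 3 fell by limma and the rest did not pass, a share like the 17.5% of all genes. Their median ratio was 0.915 at 2 months and 0.868 at 6 months, and no gene with 100 reads in 1 library was past 2-fold in 1 direction at both ages. Of 7 genes of sterol ester storage 1 rose and 1 fell by limma, beside the same shares of all genes. The one that rose was *Npc2*, which carries cholesterol out of lysosomes, from 3220 and 3771 to 7947 and 10084 (limma adjusted p = 0.0176). Its ratios after subtraction of the GC trend were 2.18 and 2.23, in place of 2.47 and 2.67.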

How the data were processed

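Heart RNA of 5 mice per group was pooled into 1 directional single-end library per group. Per the methods of the study the authors filtered reads, aligned them to mm10 with STAR, counted them with htseq-count on a UCSC annotation (HTSeq 0.6.1p1 per the submitters' processing notes) and normalized with DESeq2. The strand setting is not given in the sources used here. The deposited signal is 1 normalized count per gene, which is not scaled to a fixed total. One library's column is headed as read counts but is normalized likewise.

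From these values reads were recovered by dividing by the smallest value above 0, and 100.0% came out whole (within 1e-06). Ratios used the deposited normalized counts, with 95% Clopper-Pearson intervals from reads, for genes with at least 10 reads in 1 of 2 libraries. log2 ratios of all genes added 0.5 reads. limma 3.58.1 was fitted to log2(normalized count + 1) with genotype and age, a mean trend of the variance, and genes of at least 10 normalized counts in 2 libraries, at an adjusted p of 0.05. Its log2 differences are on that scale. edgeR 4.0.16 and DESeq2 1.42.0 were run on the recovered reads as alternatives. The p-values measure only the spread between these libraries. GC content and length came from the longest transcript of GENCODE M21 (GRCm38), available for 90.7% and 90.6% of genes compared at 2 and 6 months, the trend with GC content being fitted by lowess (span 0.3). The main limma fit, edgeR and DESeq2 were tested on simulated data without a GC trend. Counting intervals and the subtraction of a GC trend from ratios were tested on simulated data as well. The other limma fits were not. The labels name no sequencing batch to compare within.

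The 10 genes and the lists were chosen with earlier results of these data known. Named were all 10, *Tgs1*, 5 adipocyte markers, and from each other list at most 4 genes with 100 reads in 1 library and past 2-fold in 1 direction at both ages. *G0s2* and *4732471J01Rik* were named beside them, for their relation to a gene of the set. *Fabp4*, *Cox8b*, *Dio2*, *Lep*, *Retn*, *Elovl3*, *Nppa*, *Bpifa1*, *Scgb1a1*, *Myh6* and *Myh7* were named outside this rule, after their values were seen. So were *Cfd*, *Adig*, *Car3*, *Adrb3*, *Slc36a2*, *Gyk* and *Agpat9*. Marker lists of fibroblasts, endothelium, skeletal muscle and blood were read too: median ratios at 2 and 6 months were 0.838 and 1.83, 0.705 and 1.27, 0.882 and 3.97, and 0.604 and 4.30 (1 blood gene, the other 4 listed at 0).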

Additional observations from a re-analysis of the deposited data

Results flagged for a closer look

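The genes of the set, *Tgs1* and the adipocyte markers *Adipoq*, *Plin1*, *Cidec*, *Ucp1* and *Cidea* were screened for a change of direction between the ages. For 2 genes of the set and 4 of these markers the csPIMT-/- heart was above the control at one age and below it at the other. Each ratio was beyond its 95% counting interval. The difference between the ages was not tested, since each group had 1 library. *Mgll* had a ratio of 0.807 at 2 months and 1.58 at 6 months. *Dgat2* had 1.26 and 0.684. With the GC trend subtracted the ratios were 0.536 and 1.04 for *Mgll* and 0.806 and 0.433 for *Dgat2*, so that *Dgat2* was then on 1 side. The 4 screened markers went from above to below 1: *Adipoq* from 352 to 0.657, *Plin1* from 458 to 0.399, *Cidec* from 801 (interval 274 to 3887, from 3 reads in the control) to 0.679, and *Ucp1* from 204 to 0.134. Among the markers not screened, *Cfd*, *Adig*, *Car3*, *Adrb3* and *Slc36a2* also went from above to below 1 beyond their intervals. *Dio2* went the other way, from 0.564 to 1.65, beyond its intervals too.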

How the results depend on the processing

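Scaling by size factors of the 2 libraries, by TMM or by total reads turned the direction of none of the 10 genes at either age, and shifted log2 ratios by at most 0.09. The count past 2-fold was 1 in place of 2 at 2 months with the GC trend subtracted. With TMM scaling or against the mean of both controls the count at 2 months was 3, as *Pnpla2* joined *Plin3* and *Lipe*. Against the control of the other age it was 2 at 2 months, but these were *Plin2* and *Pnpla2* in place of *Plin3* and *Lipe* (log2 ratios 0.87 and 0.83). At 6 months the 1 gene was *Dgat2*, lower, with the GC trend subtracted and *Dgat1* against the mean of both controls, in place of *Plin4*. The count at that age was 0 in place of 1 with each of the 3 scalings and by a count that asks both ends of the interval to pass 2-fold, and 2 with the control of the other age. Against that control *Mgll* was above 1 at 2 months and *Plin5* below 1 at 6 months, as was *Plin5* against the mean of both controls. Genes called by limma over both ages fell from 4232 to 0 with the GC trend subtracted and to 0 without a mean trend of the variance (5965 at an unadjusted p under 0.05), where edgeR called 4127 and DESeq2 5200. Of the 10 genes 0 were called in either, in place of 4, with 3 and 4 at an unadjusted p under 0.05. Over the other fits of all 4 libraries 4 or 5 were called, the fifth being *Lipe*. Without the csPIMT-/- library of 2 months, a choice made after seeing the data, limma called 2821 genes and 1 of the 10. In that fit *Plin5* had a log2 difference of -0.00. With the GC trend subtracted the log2 differences over both ages turned to -0.05 for *Plin4*, -0.58 for *Plin5*, -0.41 for *Mgll* and 0.32 for *Abhd5*. The cause of these changes was not tested, beyond the fewer libraries or the adjustment itself. Leaving out any library leaves the model of genotype and age without residual degrees of freedom. No paired analysis was possible because each group has 1 library and the groups share only 1 replicate number.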
